A study of Rattus norvegicus with 16 samples.

Results

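The nuclear-encoded genes of the mitochondrial respiratory chain were examined in INS1 β cells overexpressing Pax5. The genes were those whose symbol in the array annotation begins with Nduf, Uqcr, Atp5 or Cox4 to Cox8, or is Sdha, Sdhb, Sdhc or Sdhd, and 80 of the 23188 transcript clusters on the array met this rule. Each of the 80 genes had a single cluster, and 15049 clusters carried a gene symbol in all. By role, 66 of the genes encode subunits of complexes I to V, 6 encode tissue-specific isoforms or paralogues of subunits, 6 encode assembly factors of complex I, and 2 encode regulators.

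INS1 β cells are a rat insulinoma line, and all cells had received a lentivirus. The control cells carried GFP and the other cells carried Pax5, a transcription factor best known from B lymphocytes, tagged with HA and driven by the human phosphoglycerate kinase 1 promoter. Virus was applied for 24 h (MOI 1.25, glucose at 11.1 mM), culture went on for a further 48 h, and RNA was taken at 72 h. The labels number 8 experiments with 1 GFP and 1 Pax5 array each, and 0 of the 16 arrays came from cells without virus. The labels do not say whether these were separate passages, so each p-value reflects only how the 8 experiments varied. The values are log2 signals after background correction, normalization between arrays and summarisation (RMA). They rank samples for 1 gene and do not rank genes against each other.

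The transgene followed the labels, with Pax5 between 7.23 and 8.39 on the GFP arrays and between 17.02 and 17.56 on the Pax5 arrays. Array medians lay between 6.98 and 7.01. Of 14 β cell markers, 10 had a named cluster and 0 of these lay among the dimmest 30% of clusters, with Ins1 at a median of 18.30 on GFP arrays and 18.24 on Pax5 arrays. Of these 10, Slc2a2 (-0.95), Nkx2-2 (-0.50) and Slc30a8 (-0.40) were lower with Pax5, Iapp (0.46), Neurod1 (0.29) and Abcc8 (0.28) were higher, and 4, Ins1 among them, did not pass the threshold used below. Of 20 measured markers of other pancreatic and stromal cell types, 10 lay among the dimmest clusters, 2 were higher with Pax5 and 1 was lower. The α cell hormone gene Gcg was bright throughout, with medians of 17.35 in GFP and 18.14 in Pax5 arrays. Experiment 8 stood apart from the others for the respiratory chain genes, as described below, and the main counts are given with and without it.

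The respiratory chain passes electrons from NADH (complex I) and succinate (complex II) through coenzyme Q to complex III, cytochrome c and complex IV, while protons are moved across the inner mitochondrial membrane. ATP synthase (complex V) uses the returning protons to make ATP, and in β cells the rise of ATP with glucose closes potassium channels and starts insulin secretion. Each complex is built by assembly factors that are not part of the finished enzyme, and all but complex II combine nuclear-encoded subunits with subunits encoded in mitochondrial DNA.

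With Pax5, 19 of the 80 genes were lower, 10 were higher and 51 did not pass an adjusted p under 0.05 (limma with the experiment as a block, adjusted over all clusters). Of all clusters, 16.1% were lower and 14.6% were higher. The median change of the 80 genes was -0.06 log2 units, beside 0.00 over all clusters. Most changes were small: 23 of the 29 genes that passed changed by less than 0.5 log2 units, and 1 gene, Cox6a2, changed at least 2-fold. Among the 51 others, changes ran from -0.25 to 0.23 with adjusted p of 0.0558 or more and SEs up to 0.119. The values of the GFP and Pax5 arrays did not overlap for 14 genes, 9 of them lower and 5 higher with Pax5, where 16.7% of all clusters showed no overlap. In 17 genes the difference had the same sign in all 8 experiments, but the share of all clusters that did so was not counted. Without experiment 8, 25 genes were lower and 9 higher, beside 15.4% and 13.9% of all clusters, and the median change was -0.10. In cell populations of this kind, fewer cells expressing a gene and less RNA per cell cannot be told apart.

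**Figure D1:**
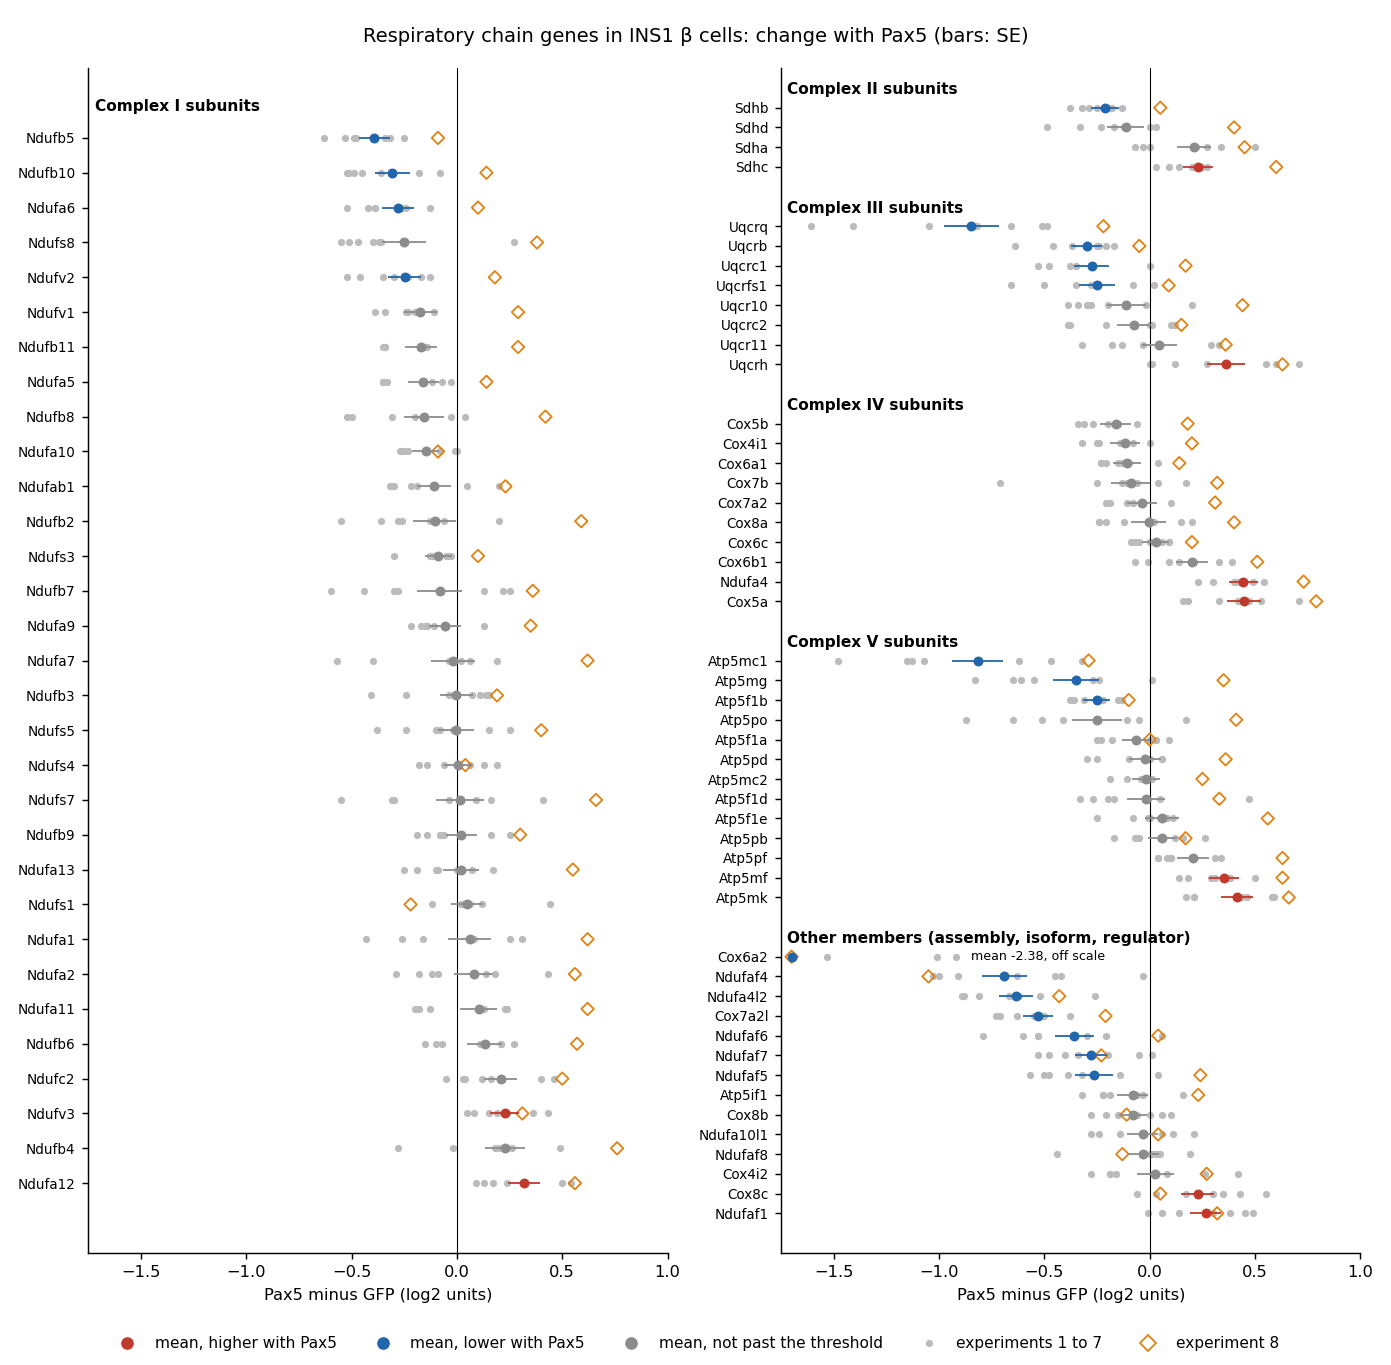
Log2 difference between Pax5 and GFP for all 80 genes, with subunits grouped by complex and the other genes in their own group. Large points are means over 8 experiments with SE, small grey points are experiments 1 to 7 and open orange diamonds are experiment 8. Values of Cox6a2 beyond the axis are drawn at its left edge. Most means lie within 0.5 log2 units of 0, and most diamonds lie to the right of the grey points.

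The largest change was in Cox6a2, which encodes the heart and skeletal muscle form of a small complex IV subunit. Its log2 value ran from 6.55 (median 7.38) to 9.43 on the GFP arrays and from 4.42 (median 5.27) to 5.63 on the Pax5 arrays. Every Pax5 array lay below every GFP array. The mean change was -2.38 ± 0.339 (SE, n = 8), 5.21-fold lower (adjusted p = 5.67e-05). On the Pax5 arrays its mean (5.175) lay near that of Pnlip (5.15), a marker among the dimmest 30% of clusters. The size of the fall is therefore uncertain. The size of the fall varied, from 0.92 log2 units lower in experiment 1 and 1.01 in experiment 2 to 4.97 in experiment 4, and the GFP arrays of experiments 1 and 2 were the dimmest of their group at 6.55 and 6.63. Cox6a1, which encodes the form found in most tissues, had values between 16.20 and 16.45 (median 16.38) with GFP and between 16.14 and 16.34 (median 16.24) with Pax5, a change of -0.11 ± 0.0672 (SE, n = 8, adjusted p = 0.249). Within experiments, the change of Cox6a2 minus that of Cox6a1 was -2.27 ± 1.37 (SD, n = 8). An exact 2-sided permutation of the signs gave p = 0.00781, which no set of 8 pairs can go below.

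Of 12 pairs of paralogous genes chosen for comparison, 7 had both members measured, and in 4 of them the members differed in change in the same direction in all 8 experiments. These are unadjusted p-values over 7 pairs. Ndufa4, now regarded as a subunit of complex IV, rose from between 14.98 and 15.31 (median 15.14) on GFP arrays to between 15.54 and 15.71 (median 15.60) on Pax5 arrays, with no overlap (0.44 ± 0.0694, SE, n = 8, adjusted p = 0.00014). Its paralogue Ndufa4l2, known as a gene induced by hypoxia, went the other way. On the GFP arrays Ndufa4l2 lay between 5.46 and 5.79 (median 5.65) and on the Pax5 arrays between 4.79 and 5.20 (median 5.02), again with no overlap (-0.64 ± 0.0798, SE, n = 8, adjusted p = 1.67e-05). The change of Ndufa4l2 minus that of Ndufa4 was -1.08 ± 0.284 (SD, n = 8, exact permutation p = 0.00781). Ndufa4l2 was dim, with a Pax5 mean of 5.02 near that of Pnlip (5.15), a marker among the dimmest 30% of clusters. The size of this difference is therefore uncertain.

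The c ring of ATP synthase is built from a subunit that several genes encode, Atp5mc1 and Atp5mc2 among them, with the same mature protein. Atp5mc1 ran from 14.81 to 15.30 (median 15.01) with GFP and from 13.82 to 14.64 (median 14.21) with Pax5, and the groups did not overlap. It was lower by a mean of 0.82 log2 units, 1.76-fold (adjusted p = 8.91e-05), with differences from -1.48 in experiment 3 to -0.29 in experiment 8. Atp5mc2 ran from 15.41 to 15.68 (median 15.55) with GFP and from 15.41 to 15.66 (median 15.54) with Pax5, so the groups covered the same range (change -0.02 ± 0.0664, SE, n = 8, adjusted p = 0.856). The changes of these genes differed by 0.80 ± 0.406 (SD, n = 8, exact permutation p = 0.00781).

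Cox7a2l encodes a protein related to the Cox7a2 subunit that, in mouse, joins complexes III and IV into supercomplexes. It lay between 13.75 and 13.91 (median 13.85) on GFP arrays and between 13.18 and 13.55 (median 13.28) on Pax5 arrays, without overlap (-0.53 ± 0.0721, SE, n = 8, adjusted p = 3.57e-05). The fall was smallest in experiment 8 (-0.21) and at least 0.38 log2 units in the others. Cox7a2 changed by -0.04 (adjusted p = 0.752), and the difference between the pair was -0.50 ± 0.165 (SD, n = 8, exact permutation p = 0.00781). The isoforms of Cox8 and Cox4 gave no such split. Cox8c, a form described in testis, was higher by 0.23 (adjusted p = 0.037), but its change minus that of Cox8a was 0.23 ± 0.287 (SD, n = 8, exact permutation p = 0.0781), with experiment 8 at -0.35 against the direction of the other 7. Cox4i2 and Cox8b, the forms of Cox4 found in lung and of Cox8 found in muscle, were the 2 genes of the 80 among the dimmest 30% of clusters. Their changes minus those of Cox4i1 and Cox8a were 0.14 ± 0.315 and -0.08 ± 0.339 (SD, n = 8, exact permutation p = 0.320 and 0.547).

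**Figure D2:**
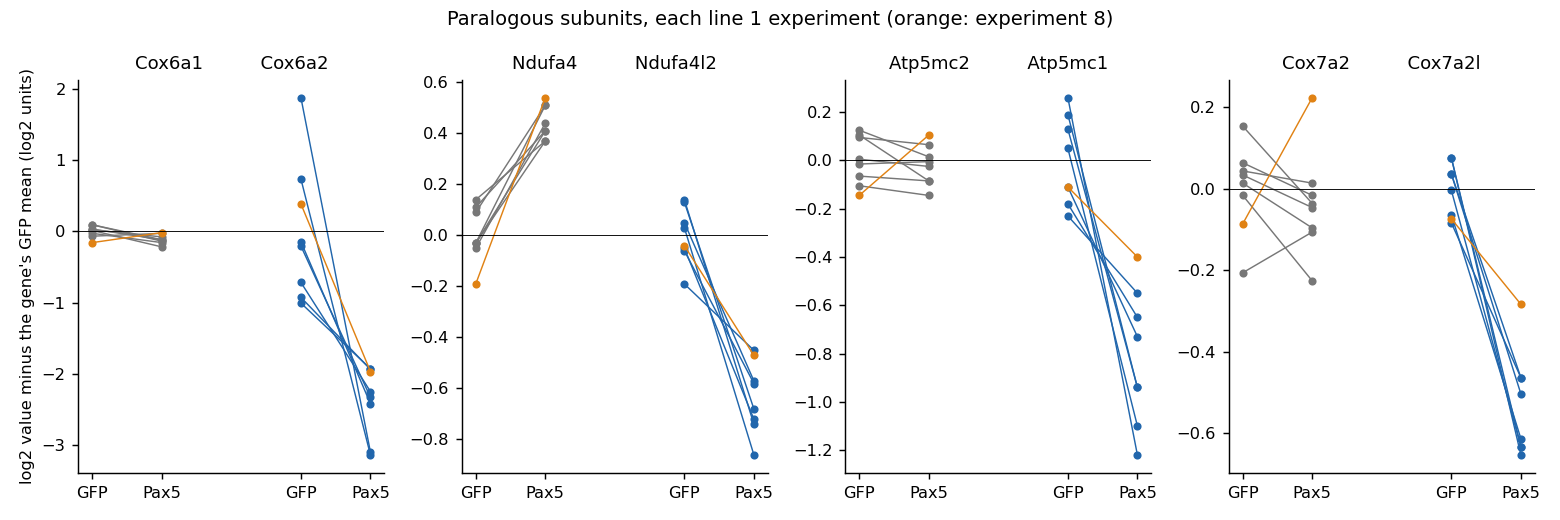
Log2 values of 4 pairs of paralogous genes on GFP and Pax5 arrays, each minus that gene's mean over the GFP arrays, with 1 line per experiment (orange: experiment 8). Cox6a2, Ndufa4l2, Atp5mc1 and Cox7a2l fall in all 8 experiments, whereas Cox6a1, Atp5mc2 and Cox7a2 stay near their GFP means and Ndufa4 rises in all 8.

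Among the 66 subunits, 12 were lower and 8 higher, with a median change of -0.03. The shares of all clusters to set beside this and the counts per complex are 16.1% lower and 14.6% higher. Complex I, the NADH dehydrogenase, had 31 subunits measured, of which 4 were lower, 2 higher and 25 not past the threshold (median -0.02). Ndufb5, an accessory subunit of the membrane arm, showed the largest fall, from between 14.28 and 14.52 (median 14.45) with GFP to between 13.89 and 14.19 (median 14.01) with Pax5. The groups did not overlap (-0.39 ± 0.0723, SE, n = 8, adjusted p = 0.0006). Ndufb10, also of the membrane arm, was lower in 7 of 8 experiments, with values from 11.39 to 11.72 (median 11.52) against 11.03 to 11.53 (median 11.26), which overlap through the Pax5 array of experiment 8 (-0.31 ± 0.0826, SE, adjusted p = 0.00989). The other lower subunits were Ndufa6 (-0.28) and Ndufv2 (-0.25), a core subunit that binds an iron-sulfur cluster. Both had values above 0 in experiment 8 only. Ndufa12 and Ndufv3, accessory subunits of the arm that oxidises NADH, were higher in all 8 experiments (0.32, adjusted p = 0.00384, and 0.23, adjusted p = 0.0175). The 6 measured core subunits, which carry the catalytic machinery, had 1 lower and 0 higher (median -0.13), and the 25 accessory subunits had 3 lower and 2 higher (median 0.00). Without experiment 8, the core subunits had 3 lower and 0 higher (median -0.18) and the accessory subunits 5 lower and 2 higher (median -0.06).

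In complex II, succinate dehydrogenase, the 4 subunits did not move together. Sdhb, the iron-sulfur subunit, ran from 12.44 to 12.62 (median 12.54) with GFP and from 12.20 to 12.53 (median 12.31) with Pax5, and the Pax5 array of experiment 8 alone reached the GFP range (-0.21 ± 0.0671, SE, n = 8, adjusted p = 0.0251). Sdhc, a membrane anchor, ran from 10.80 to 11.08 (median 11.00) with GFP and from 11.11 to 11.40 (median 11.22) with Pax5, with no overlap (0.23 ± 0.072, SE, n = 8, adjusted p = 0.0245). Without experiment 8, Sdhc had a change of 0.17 and no longer passed (adjusted p = 0.0733). The flavoprotein Sdha had a change of 0.21 (adjusted p = 0.0564) and the other anchor, Sdhd, of -0.11 (adjusted p = 0.36).

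Complex III was the complex with the lowest median (-0.18), and 4 of its 8 subunits were lower and 1 was higher. Uqcrq, a small subunit of the complex, ran from 13.38 to 13.99 (median 13.57) with GFP and from 12.31 to 13.28 (median 12.83) with Pax5. All Pax5 arrays lay below all GFP arrays, and the gene was 1.80-fold lower (-0.85 ± 0.129, SE, n = 8, adjusted p = 0.000107). The fall was 1.41 log2 units in experiment 3 and 1.61 in experiment 4, and the smallest was in experiment 8 at 0.22. Uqcrb, which contacts the ubiquinone-binding site, was lower in all 8 experiments without overlap of the groups, from between 13.01 and 13.33 (median 13.09) to between 12.69 and 12.96 (median 12.84) (-0.30 ± 0.0738, SE, adjusted p = 0.00555). Uqcrc1, a core protein, had a change of -0.28 (adjusted p = 0.018), and Uqcrfs1, the Rieske iron-sulfur protein that hands electrons to cytochrome c1, of -0.25 (adjusted p = 0.0343). Both were lower in 6 of 8 experiments. Uqcrh, the hinge protein, was the gene that rose. It lay between 13.84 and 14.50 (median 14.11) with GFP and between 14.44 and 14.61 (median 14.51) with Pax5, and the change was near 0 in experiments 1 and 2 (0.00 and 0.01) and between 0.12 and 0.71 in the other experiments (mean 0.36 ± 0.0917, SE, n = 8, adjusted p = 0.0067). The overlap of the groups came from the GFP arrays of experiments 1 and 2, the brightest of their group at 14.50 and 14.47.

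Complex IV, cytochrome c oxidase, had 10 subunits measured, with 2 higher, 0 lower and 8 not past the threshold (median -0.02). Cox5a, a regulatory subunit facing the matrix, ran from 11.04 to 11.52 (median 11.24) with GFP and from 11.59 to 11.83 (median 11.70) with Pax5, so that every Pax5 array lay above every GFP array. It was 1.37-fold higher (0.45 ± 0.0802, SE, n = 8, adjusted p = 0.000456), the largest rise of the 80 genes, and differences ran from 0.16 in experiment 1 to 0.79 in experiment 8. The other was Ndufa4, described above. Cox4i1 and Cox5b, nuclear-encoded subunits around the catalytic core, had changes of -0.12 (adjusted p = 0.231) and -0.16 (adjusted p = 0.0998).

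In ATP synthase, 3 of 13 subunits were lower and 2 were higher (median -0.02). Besides Atp5mc1, the catalytic β subunit Atp5f1b was lower in all 8 experiments. It ran from 16.30 to 16.47 (median 16.42) with GFP and from 16.07 to 16.26 (median 16.14) with Pax5, with no overlap (-0.25 ± 0.0653, SE, n = 8, adjusted p = 0.0076). Its partner in the catalytic head, the α subunit Atp5f1a, had values from 15.91 to 16.07 with GFP and from 15.82 to 16.02 with Pax5 (-0.06 ± 0.0672, SE, adjusted p = 0.523). Small subunits of the membrane sector moved both ways. Atp5mk, which helps to hold ATP synthase dimers, rose from between 15.79 and 16.21 (median 15.96) to between 16.36 and 16.48 (median 16.40), with no overlap (0.42 ± 0.0751, SE, n = 8, adjusted p = 0.000509). Atp5mf, the f subunit, was higher in all 8 experiments, from between 14.80 and 15.22 (median 14.96) to between 15.20 and 15.44 (median 15.31) (0.35 ± 0.0705, SE, adjusted p = 0.00119). Atp5mg, the g subunit, was lower by a mean of 0.35, with values from 9.21 to 9.79 (median 9.49) and from 8.91 to 9.68 (median 9.14). Its difference was 0.35 in experiment 8 and 0.01 in experiment 3, and between -0.83 and -0.24 in the others (adjusted p = 0.0243, and 0.00226 without experiment 8). Atp5if1, the inhibitor of ATP hydrolysis by complex V, had a change of -0.08 (adjusted p = 0.458).

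Of nuclear-encoded subunits commonly blotted as protein markers of their complexes, Sdhb is described above, and Ndufb8 (-0.16, adjusted p = 0.231), Uqcrc2 (-0.08, adjusted p = 0.523) and Atp5f1a did not pass the threshold as transcripts. Ndufb8 ran from 14.67 to 15.03 (median 14.92) with GFP and from 14.50 to 15.09 (median 14.74) with Pax5. Its difference was 0.42 in experiment 8 and between -0.52 and 0.04 in the other 7, and without experiment 8 it passed (-0.24, adjusted p = 0.0427). For Uqcrc2 the sign varied, with -0.38 and -0.39 in experiments 1 and 2 and 0.12 and 0.10 in experiments 3 and 4. None of the 13 subunits encoded in mitochondrial DNA had a named cluster (0 of 13), so they were not analysed here.

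The assembly factors that the rule matched are all of complex I. Of these 6, 4 were lower, 1 was higher and 1 did not pass (median -0.27), beside 16.1% lower and 14.6% higher of all clusters. Ndufaf4, needed for an early assembly step, ran from 8.36 to 8.95 (median 8.77) with GFP and from 7.84 to 8.33 (median 8.01) with Pax5. The groups did not overlap, and the gene was 1.61-fold lower (-0.69 ± 0.106, SE, n = 8, adjusted p = 0.00012). The difference was -0.03 in experiment 2 and between -1.05 and -0.42 in the others, and experiment 8 gave the largest fall. Ndufaf6 had a change of -0.36 (adjusted p = 0.00852), Ndufaf7, an arginine methyltransferase, of -0.28 (adjusted p = 0.0102), and Ndufaf5, an arginine hydroxylase that acts on Ndufs7, of -0.27 (adjusted p = 0.0357). Ndufaf1, a chaperone of the membrane arm, was higher by 0.27 in 7 of 8 experiments (adjusted p = 0.0114).

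A wider list of 64 assembly factors for all 5 complexes had 50 measured, those 6 included. Beside 14.6% higher and 16.1% lower of all clusters, this list had 12 higher and 8 lower (median -0.01). Outside the rule, 11 of 44 were higher and 4 lower (median 0.02). These counts and the sign of the second median depended on experiment 8, without which the list had 10 higher and 10 lower (median -0.02) and the factors outside the rule 9 higher and 6 lower (median -0.01). The median of the 66 subunits minus that of the 50 assembly factors was below 0 in each of experiments 1 to 7 (between -0.14 and -0.04 log2 units) and above 0 in experiment 8 (0.13). This difference between the lists was not tested. The largest rise was in Lrpprc, which stabilises mitochondrial mRNAs and is needed for complex IV. It lay between 12.34 and 12.60 (median 12.45) with GFP and between 12.78 and 13.10 (median 13.05) with Pax5, with no overlap (0.53 ± 0.0763, SE, n = 8, adjusted p = 6.05e-05). Higd1a, a small protein that binds complex IV, was higher by 0.46 (adjusted p = 0.000135), and Sdhaf2, which attaches flavin to Sdha, by 0.39 (adjusted p = 0.000592), both in all 8 experiments. Within complex I, Dmac2 (0.34), Dmac1 (0.29), Ecsit (0.26) and Acad9 (0.22) were higher. The falls outside the rule included Taco1, a translational activator of the mitochondrial Cox1 mRNA (-0.36, adjusted p = 0.00763), and Cox11, a copper chaperone of complex IV (-0.33, adjusted p = 0.0015). Of 12 measured genes of coenzyme Q synthesis and handling, 2 were higher and 3 lower (2 and 4 without experiment 8), led by Pdss2, which makes the side chain of the quinone (0.44, adjusted p = 0.000608), and Coq10b (-0.37, adjusted p = 0.00201). Cycs, which encodes the electron carrier cytochrome c, had a change of -0.25 (adjusted p = 0.077). Cyc1, which encodes cytochrome c1, a subunit of complex III outside the rule, had one of -0.20 (adjusted p = 0.0577), and without experiment 8 it was lower (-0.24, adjusted p = 0.026).

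The transcription factors and coactivators that are known to drive respiratory genes fell or did not pass the threshold. Of 12 measured, 6 were lower and 0 were higher (median -0.28), with the same counts without experiment 8. Of all clusters, 16.1% were lower and 14.6% higher (15.4% and 13.9% without experiment 8). Ppargc1a encodes the coactivator PGC-1α, which raises mitochondrial gene expression in muscle, liver and brown fat. Its values ran from 8.41 to 9.14 (median 8.89) with GFP and from 7.75 to 8.33 (median 8.01) with Pax5, without overlap (-0.82 ± 0.12, SE, n = 8, adjusted p = 7.24e-05). The fall was smallest in experiments 1 and 2 (-0.32 in each) and was 1.16 log2 units in experiment 8. Nrf1 encodes nuclear respiratory factor 1, which binds the promoters of many respiratory genes. It ran from 12.08 to 12.71 (median 12.50) with GFP and from 11.55 to 12.06 (median 11.81) with Pax5, again with every Pax5 array below every GFP array (-0.67 ± 0.103, SE, n = 8, adjusted p = 0.00012).

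Pprc1 (-0.55, adjusted p = 0.0012) and Ppargc1b (-0.34, adjusted p = 0.013), coactivators related to Ppargc1a, were lower as well. Tfam, which packages mitochondrial DNA and starts its transcription, and Tfb1m, which methylates the mitochondrial ribosomal RNA, were lower in all 8 experiments, by 0.38 (adjusted p = 0.00217) and 0.45 log2 units (adjusted p = 0.000422). Gabpa and Gabpb1, which form the ETS factor also called nuclear respiratory factor 2, had changes of -0.04 (adjusted p = 0.717) and 0.14 (adjusted p = 0.195), and the nuclear receptor Esrra had one of -0.08 (adjusted p = 0.375). Yy1 (-0.215, adjusted p = 0.112), Tfb2m (-0.165, adjusted p = 0.0987) and Polrmt (0.001, adjusted p = 0.992) did not pass either.

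**Figure D3:**
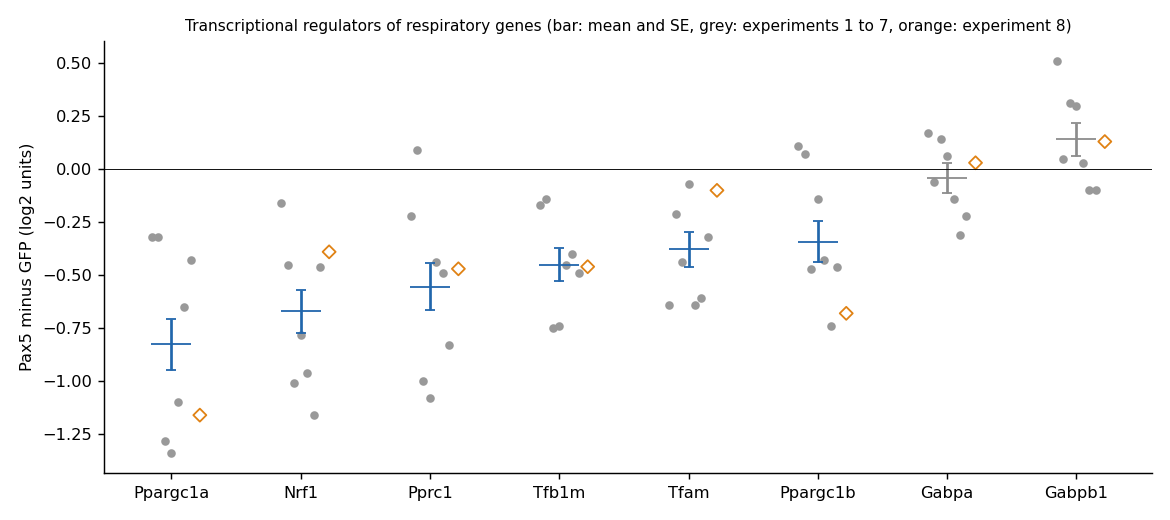
Log2 difference between Pax5 and GFP for 8 of the 12 measured regulators of respiratory genes: the 6 that were lower, with Gabpa and Gabpb1. Horizontal bars are means with SE over 8 experiments (blue: lower at an adjusted p under 0.05, grey: not past it), grey points are experiments 1 to 7 and orange diamonds are experiment 8. Ppargc1a, Nrf1, Tfb1m and Tfam lie below 0 in all 8 experiments, and the means of Gabpa (-0.04) and Gabpb1 (0.14) lie near 0.

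The promoters of the respiratory chain genes were searched for letters that Nrf1 and the ETS factor of Gabpa and Gabpb1 are known to bind. This search was chosen after the changes of these factors had been seen. RefSeq promoter windows (assembly GRCr8) from 250 bases before to 50 bases after the gene's start were matched for 71 of the 80 genes. Where a gene had several windows, only the first listed was used, so letters near another start would be missed. The NRF1 letters GCGCATGCG, on either strand, occurred in 7 of the 71 windows (9.859%) and in 1.6571% of all 27457 windows. The stretches around them are shown with the letters in capitals, overlapping matches included, each 5′ to 3′ on the strand of the gene.
Ndufaf4 (chr5:43401621-43401661, + strand): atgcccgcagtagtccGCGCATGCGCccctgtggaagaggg
Ndufaf5 (chr3:147961581-147961621, + strand): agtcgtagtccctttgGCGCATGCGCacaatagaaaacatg
Uqcrc1 (chr8:118468168-118468208, + strand): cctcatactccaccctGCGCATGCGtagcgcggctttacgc
Atp5mg (chr8:54130627-54130657, - strand): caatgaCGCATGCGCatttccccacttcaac
Atp5po (chr11:44657518-44657558, - strand): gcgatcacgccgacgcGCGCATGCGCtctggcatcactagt
Atp5mc2 (chr7:135678250-135678290, - strand): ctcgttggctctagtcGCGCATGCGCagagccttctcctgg
Ndufa11 (chr9:1637501-1637541, + strand): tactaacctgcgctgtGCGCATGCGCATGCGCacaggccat

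Of these 7 genes, Ndufaf4, Ndufaf5, Uqcrc1 and Atp5mg were lower with Pax5 and 0 were higher. Atp5po (-0.25, adjusted p = 0.125), Atp5mc2 (-0.02) and Ndufa11 (0.10) did not pass. Their median change was -0.27, beside -0.06 over the 64 genes whose windows lack these letters, of which 13 were lower and 10 higher. With 7 genes this is a description of their promoters. Binding of Nrf1 was not measured, and a link between the fall of Nrf1 and these genes was not tested. The ETS letters CCGGAAG occurred in 22 of the 71 windows (30.986%) and in 9.2181% of all windows. Of those 22 genes, 4 were lower and 3 higher (median -0.05), beside 13 lower and 7 higher of the 49 genes without them (median -0.08). The letters GCGTGAC, found in the core of Pax5 sites, occurred in 1 window, that of Ndufaf5 (1.408%, beside 2.0869% of all windows).

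The 100 bases before the start are shown for the 3 genes of the 80 with the largest falls, with ETS letters in capitals. Uqcrq has them near its start, and neither Cox6a2 nor Atp5mc1 holds the NRF1, ETS or GCGTGAC letters in its window.
Cox6a2 (chr1:192219717-192219816, - strand): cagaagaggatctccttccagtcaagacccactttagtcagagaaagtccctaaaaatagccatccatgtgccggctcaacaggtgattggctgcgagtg
Uqcrq (chr10:38089979-38090078, - strand): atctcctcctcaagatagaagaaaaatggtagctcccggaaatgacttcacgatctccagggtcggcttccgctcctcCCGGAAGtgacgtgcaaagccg
Atp5mc1 (chr10:81523346-81523445, - strand): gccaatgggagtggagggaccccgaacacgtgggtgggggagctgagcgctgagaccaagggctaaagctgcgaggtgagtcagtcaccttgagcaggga

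Experiment 8 differed from the other experiments for the subunits. The median difference of the 66 subunits was 0.34 log2 units in experiment 8 and between -0.16 and -0.03 in experiments 1 to 7. It was 0.35 for complex I, 0.42 for complex II, 0.16 for complex III, 0.32 for complex IV and 0.35 for complex V, each above the highest of the other 7 experiments (-0.05, 0.07, -0.09, 0.08 and 0.04). In 60 of the 80 genes the difference was higher in experiment 8 than in each of the other 7, against 1 to 5 genes for any other experiment and 13.4% of all clusters for experiment 8. Of the 60, 57 were subunits (of 66) and 3 belonged to the 14 other genes. The difference lay above 0 in 65 genes in experiment 8 and in 22 to 33 genes in the other experiments. Of 57 genes that were lower on average in experiments 1 to 7, 43 lay above 0 in experiment 8.

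Both arrays of the experiment lay apart from their groups. Its GFP array was the lowest of its group for 38 of the 80 genes (1 to 10 for any other experiment), and its Pax5 array was the highest of its group for 57 (1 to 6 for any other). The genes deviated from their group means by a median of -0.14 on that GFP array and of 0.18 on that Pax5 array. Over all clusters, same-numbered arrays deviated in opposite directions in every experiment (correlations of -0.749 to -0.704). The low GFP array and the high Pax5 array are therefore not separate observations. Atp5f1e, the ε subunit of ATP synthase, stood furthest from the others: its difference was 0.56 in experiment 8 and at most 0.11 elsewhere, with the GFP array at 13.45 (GFP range 13.39 to 13.77) and the Pax5 array at 14.01, where the other Pax5 arrays lay between 13.34 and 13.77. Next were Ndufb11 (0.29 in experiment 8, between -0.35 and -0.14 in the others) and Ndufa7 (0.62, at most 0.19 in the others), both subunits of complex I. Some genes did not take part in this shift. Cox6a2 (-2.35), Ndufaf4 (-1.05) and Ndufa4l2 (-0.43) lay within or below the range of the other experiments, and so did the core subunit Ndufs1, which was lowest in experiment 8 (-0.22).

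Normalization between arrays holds the median difference of all clusters near 0 (-0.01 in experiment 8), so it could not show a shift of whole arrays. Over clusters as bright as the respiratory chain genes, the median difference was -0.03 in experiment 8 and between -0.05 and 0.02 over all experiments. The median of those clusters did not move with the subunits. Other gene groups moved with the subunits. The 66 cytosolic ribosomal protein genes had a median of -0.10 in experiment 8 and between -0.53 and -0.27 in the other 7, and the 69 mitochondrial ribosomal protein genes had 0.21 against -0.37 to -0.09. The 50 assembly factors had a median of 0.21, against -0.09 to 0.04. Of them, 14 were highest in experiment 8, beside 13.4% of all clusters. The 12 regulators had a median of -0.14, inside the range of the others (-0.43 to -0.05). Over all clusters, the differences in experiment 8 correlated with those of the other experiments at 0.553 to 0.618, and those of experiments 1 to 7 with each other at 0.539 to 0.748, a description across clusters that are not independent. Whether RNA quality, cell state or handling moved with experiment 8 was not tested.

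**Figure D4:**
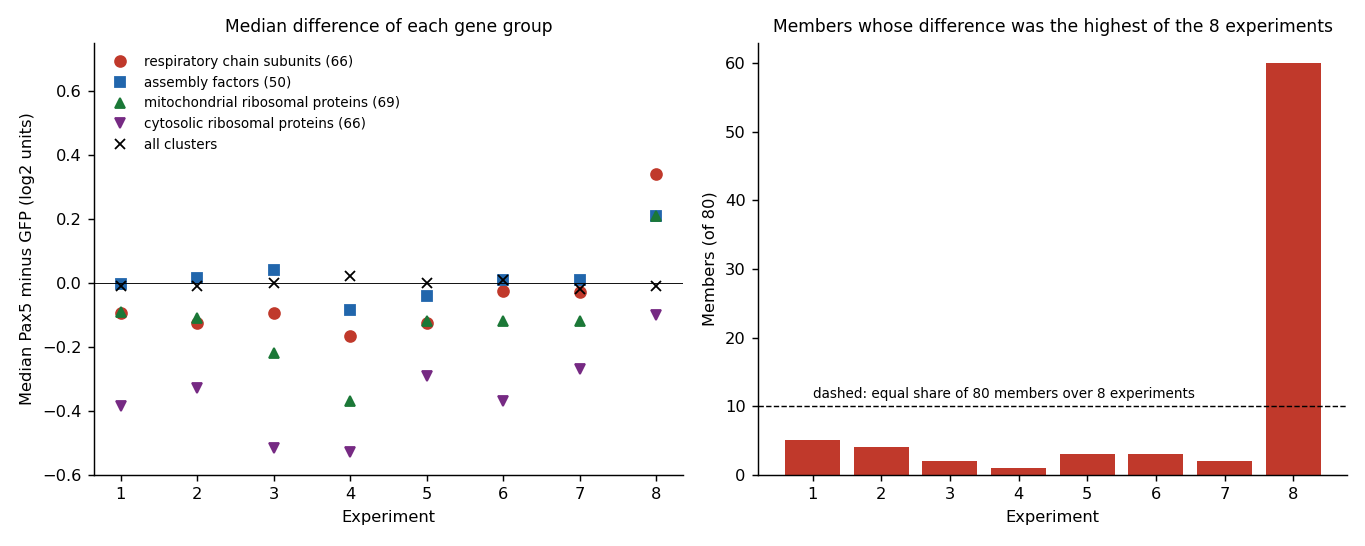
Left, median log2 difference between Pax5 and GFP in each experiment for subunits, assembly factors, ribosomal protein genes and all clusters. Right, the number of the 80 genes whose difference was the highest of the 8 experiments, with a dashed line at 10. Subunits lie at 0.34 in experiment 8 and between -0.16 and -0.03 in the others. All clusters stay near 0, where normalization keeps them, and experiment 8 has the highest difference for 60 genes.

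Leaving experiment 8 out changed the call of 7 subunits. Atp5po, Cox5b, Ndufb8, Ndufb11, Ndufs8 and Ndufv1 became lower and Sdhc was no longer higher, and the other 19 lower and 9 higher genes kept their calls. Of all clusters, 15.4% were lower and 13.9% higher without experiment 8. Subunits of complex I then had 8 lower and 2 higher (median -0.11), those of complex II 1 lower and 0 higher (median -0.01), those of complex III 4 lower and 1 higher (median -0.24), those of complex IV 1 lower and 2 higher (median -0.07), and those of complex V 4 lower and 2 higher (median -0.07). The cytosolic ribosomal protein genes, given here for scale, had 58 lower and 0 higher of 66 with all experiments (median -0.36), and 61 lower without experiment 8. The mitochondrial ones had 21 lower and 5 higher of 69 (median -0.14), and 28 lower and 5 higher without it.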

How the data were processed

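RNA of INS1 β cells was hybridized to Affymetrix arrays with 1 colour (8 GFP and 8 Pax5 arrays). Transcriptome Analysis Console and RMA (versions not given in the sources used) turned the scans into the log2 values that the authors deposited. Symbols come from the platform annotation, which leaves 8139 clusters unnamed. All columns were used (0 left out). Scanner files were not used here, and probes of small subunits may also bind processed pseudogenes, which could not be checked. The number of arrays limits the precision.

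Pax5 was compared with GFP by lmFit and eBayes over all 23188 clusters (limma 3.58.1 under R 4.3.3). The model had a term for each experiment, and p-values received Benjamini-Hochberg adjustment. The fit was tested on simulated data whose same-numbered arrays shared an effect, so that test does not cover the negative correlations given below. The pairing comes from the labels, which number the experiments. Same-numbered arrays deviated from their group means with correlations of -0.749 to -0.704, and arrays of different numbers with -0.0893 to 0.259. An effect shared by the arrays of an experiment would give positive correlations, which were not seen. The strong negative correlations were limited to same-numbered arrays, so the numbers do link each GFP array to its Pax5 array. The arrays of a pair deviated in opposite directions, and why they did was not tested. Pairs of genes were compared by exact sign flips over 8 pairs (256 arrangements). Gene lists are described by counts and medians, without a test.

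The genes, lists and pairs were chosen with earlier results of these data known. Named genes were all genes of the pairs, 4 subunits commonly blotted as markers of their complexes, the 10 largest rises and 10 largest falls among genes past the threshold, assembly factors and regulators that passed, the 3 genes furthest out in experiment 8 and up to 3 genes of each other list. Further genes of a complex or list were named after their values were seen, for context. Alternatives were a fit without the experiment, centring on array medians, quantile normalization, a filter on the dimmest 30% of clusters, weights for arrays, trended and robust eBayes, the paired test named in the study, and leaving out each experiment.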

Additional observations from a re-analysis of the deposited data

Results flagged for a closer look

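In 102 groups of 8 arrays (each named gene in GFP and in Pax5), the highest and the lowest array were compared with their nearest neighbour by Dixon's criterion, and 2 groups held an array that stood apart, where chance gives about 5.1. The Pax5 array of experiment 8 was the highest for Atp5mg at 9.68, with the next at 9.25. The GFP array of experiment 8 was the lowest for Sdhc at 10.80, with the next at 10.97. Both belong to experiment 8, and the calls of both genes depend on it to different degrees: Atp5mg was lower with it (adjusted p = 0.0243) and without it (adjusted p = 0.00226 in limma), and Sdhc was higher with it (adjusted p = 0.0245) and not without it (adjusted p = 0.0733).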

How the results depend on the processing

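Without the replicate block, 25 of the 80 genes were lower and 15 higher, beside 19 and 10 with it. That fit leaves out the negative correlations of same-numbered arrays, so its SEs may be too small and its counts too high. Quantile normalization gave 18 lower and 14 higher and turned the median change of the subunits from -0.03 to 0.01. Lower and higher genes numbered 19 and 10 after median centring, 19 and 14 without the dimmest 30% of clusters, 20 and 11 with array weights, 19 and 13 with trended and robust eBayes, and 14 and 9 with the methods' paired test after Benjamini-Hochberg adjustment (23 and 14 unadjusted). Leaving out each experiment gave 14 to 25 lower and 8 to 12 higher genes, subunit medians of -0.08 to -0.03 and assembly factor medians of -0.02 to 0.02, so the sign of the latter is not settled. Restricted to the 6 assembly factors of the rule, that median was -0.27. The difference of Cox8c and Cox8a was between 0.18 and 0.32 (exact permutation p between 0.0156, without experiment 8, and 0.156). Without experiments 1, 2 and 8, chosen after seeing the data, 23 genes were lower and 7 higher. Of 51 named genes, 36 kept their side of the threshold under all alternatives run, 0 reversed, Ndufb8 and Ndufb11 gained a call under at least 1, and 13 lost theirs under at least 1: Atp5mg, Atpaf1, Cox8c, Dmac2, Ecsit, Ndufaf1, Ndufaf5, Ndufaf6, Ndufv3, Sdhb, Sdhc, Taco1 and Uqcc4. Using the dimmest cluster of a symbol alters nothing, since each symbol has 1.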
